A study of Mus musculus with 16 samples.

Results

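The nuclear-encoded respiratory chain genes are the protein-coding mouse genes whose symbols start with Nduf, Sdha to Sdhd, Uqcr, Cox4 to Cox8 or Atp5. Entrez identifiers in the count files were matched to symbols, and pseudogenes and genes of mitochondrial DNA were left out. Of 24467 genes in the files, 94 met this rule. They comprised 37 subunits of complex I, 8 assembly factors of complex I, 4 subunits of complex II, 8 of complex III, 20 of complex IV and 17 of complex V. The 20 of complex IV, here and in the values below, include Cox7a2l, a supercomplex factor rather than a subunit. Another 2 genes that meet the rule in the RefSeq table, and the subunits encoded in mitochondrial DNA, were not analysed here.

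Transcripts were measured by bulk RNA sequencing in 16 libraries of mouse pancreatic ductal adenocarcinoma (PDAC) cells, with 4 libraries in each of 4 groups sorted by flow cytometry. All groups came from KPC 7TCF-eGFP/Porcn-DMA cells, a PDAC line grown as orthotopic tumours in the mouse pancreas. Cells of this line carried both constructs, whichever gate they fell in. The libraries also held markers of other cell types, given below, and such host cells would not carry them. The groups were DP (positive for both reporters), mScarlet (mScarlet alone), GFP (GFP alone) and DN (negative for both). In 7TCF-eGFP, TCF binding sites drive green fluorescent protein, a readout of WNT signalling through beta-catenin. The labels give the mScarlet gate no function in words, and the design names a WNT-secreting population. The sources used here give no age, sex or strain for the hosts and no make-up for Porcn-DMA. The design text gives 4 mice per group, and the titles number the libraries 1 to 4 in each group without saying what the number marks. The line is a single model, so the values describe this line.

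The respiratory chain sits in the inner mitochondrial membrane. Complex I (NADH dehydrogenase) and complex II (succinate dehydrogenase) pass electrons to coenzyme Q, complex III passes them on to cytochrome c, and complex IV (cytochrome c oxidase) passes them to oxygen. Complexes I, III and IV pump protons, and complex V (ATP synthase) uses the gradient to make ATP. Several complex IV subunits, and a few others, come in alternative isoforms from separate genes with tissue-restricted expression. Proliferating tumour cells often run glycolysis beside respiration.

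Total counts per library ran from 80647185 to 104273669, and the 94 genes held 1.434% to 1.942% of them. In all groups the epithelial markers Krt8, Krt18, Krt19, Krt7, Cdh1 and Muc1 were high, with mean levels per group from 686 to 12522 CPM (read counts scaled to library size, with TMM factors that correct for library composition). Epcam averaged 0.23 CPM in DP, 0.119 in mScarlet, 7.37 in GFP and 0.229 in DN, and Cldn4 at most 9.99 CPM. GFP libraries 1 and 4 stood apart in markers of other cells. Summed macrophage markers reached 22233 CPM in GFP library 1, and in GFP library 4 fibroblast markers reached 9111 CPM and acinar markers 24481 CPM. Results are therefore also given without these libraries. In bulk RNA, fewer cells of a type and less RNA per cell cannot be told apart.

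The promoters of 3 members are shown because they carry the regulatory letters searched for, or because they belong to the isoform pair that the results turn on. They are 250 bases upstream of the first listed start of the gene in RefSeq, GRCm38.p6, written 5′ to 3′ on the gene's strand. Capitals mark the palindromic core motif of NRF1, which starts with GCGCA, or an ETS motif (CCGGAAG, or CTTCCGG on the other strand). Cox6a1 encodes the widely expressed isoform of a complex IV subunit, and its window holds both motifs. Cox7a1 encodes the isoform of subunit 7a that is typical of heart and skeletal muscle, and Cox7a2 the more widely expressed one. Neither window of this pair holds a searched motif. The start used for Cox7a2 lies inside the full span of the gene, and other starts were not searched.
Cox6a1 (chr5:115348959-115349208, minus strand): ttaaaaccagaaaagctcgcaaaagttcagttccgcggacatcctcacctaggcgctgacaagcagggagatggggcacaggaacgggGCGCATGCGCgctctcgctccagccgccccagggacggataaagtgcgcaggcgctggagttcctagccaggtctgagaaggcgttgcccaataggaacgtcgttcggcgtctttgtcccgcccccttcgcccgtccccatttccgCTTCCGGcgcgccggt
Cox7a1 (chr7:30183921-30184170, plus strand): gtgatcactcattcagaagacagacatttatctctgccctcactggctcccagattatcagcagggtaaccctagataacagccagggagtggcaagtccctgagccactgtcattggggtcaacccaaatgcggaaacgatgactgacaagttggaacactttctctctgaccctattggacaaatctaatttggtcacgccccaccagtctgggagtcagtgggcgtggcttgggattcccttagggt
Cox7a2 (chr9:79759854-79760103, minus strand): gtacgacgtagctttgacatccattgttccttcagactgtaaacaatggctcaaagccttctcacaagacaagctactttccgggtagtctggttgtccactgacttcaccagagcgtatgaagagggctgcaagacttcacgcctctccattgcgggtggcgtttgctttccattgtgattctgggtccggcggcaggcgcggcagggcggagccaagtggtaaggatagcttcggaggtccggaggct

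NRF1 and the ETS-family factor GABP are known activators of respiratory chain genes. Among the 76 members with a window in the table, the NRF1 letters were present on either strand in 5 (6.58%), against 0.781% of all 27025 promoters. The 5 were Atp5g2, Atp5k, Cox6a1, Ndufa11 and Ndufaf4. The ETS letters were present in 13 members (17.1%), against 7.05% of all promoters, among them Sdhd, Cox6b1 and Uqcrh. The short core of the hypoxia response element (ACGTG, or CACGT on the other strand) was present in 15 members (19.7%), against 16.6% of all promoters. These matches describe letters only. No motif searched lies within another, and Cox6a1 was the only member with both the NRF1 and the ETS letters. Ndufa4l2, Cox4i1 and Cox4i2 had no window in the table.

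Most members were abundant, and the levels of subunits differed by complex and by isoform. Levels between genes are compared as CPM per kilobase of exon, the mean over 16 libraries. Of the 94 genes, 81 had a mean of at least 10 CPM, and 93 had an exon length. Cox4i1, the common isoform of the largest nuclear-encoded complex IV subunit, was highest at 1234 CPM per kb. Cox6a1 followed at 1014, Cox8a at 859.9 and the catalytic beta subunit of ATP synthase, Atp5b, at 811. In complex I the accessory subunit Ndufa7 was highest at 579.8 CPM per kb, and the iron-sulfur core subunit Ndufs1 was at 19.6. The 4 subunits of complex II ranged from 64.4 for Sdhc, a membrane anchor, to 224 for Sdhb, the iron-sulfur subunit. Complex III ranged from 55.8 for the core protein Uqcrc2 to 405 for the small subunit Uqcr10. Complex V ranged from 24.6 for Atp5md, a small subunit of the membrane part, to 811 for Atp5b. The 8 assembly factors, which help build complex I and are not part of it, ranged from 1.2 for Ndufaf4 to 37.8 for Ndufaf8, a range that also held some subunits, such as Ndufs1 and Atp5md.

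**Figure D1:**
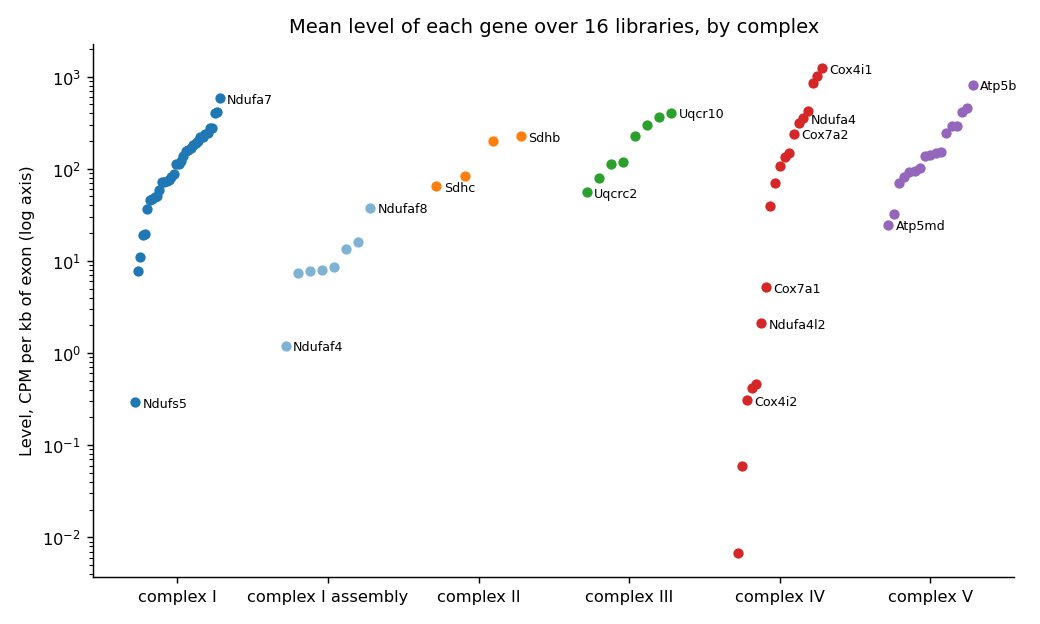
Mean level of each gene in CPM per kb of exon (log axis), one point per gene, grouped by complex. Cox8c at 0 and Ndufb4c without a length are not drawn. Complex IV spans from 1234 for Cox4i1 down to isoforms below 1, and the assembly factors reach at most 37.8, within the range of the subunits.

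Within each isoform pair of complex IV, the widely expressed gene was far above its tissue-restricted partner. Cox7a2 was at 241 CPM per kb and Cox7a1 at 5.15. Ndufa4, now assigned to complex IV, was at 353, and its paralog Ndufa4l2, a known target of the hypoxia factor HIF-1, at 2.11. Cox4i2, known from lung and hypoxic cells, was at 0.307. Cox6a2, the muscle isoform, was at 0.457 and Cox6b2, known from testis, at 0.421, against 423 for Cox6b1. Cox8b had 28 counts, all of them in GFP library 4, Cox7b2 had 5 counts in all and Cox8c had 0. These 3 did not pass the expression filter, so 91 members were tested. The upper limit from a count of 0 is 3 counts, worth 0.0284 to 0.0388 CPM in a library, and covers counting error only.

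Ndufs5, a small complex I subunit, was listed at a mean of 0.252 CPM, while the pseudogene Ndufs5-ps had 23.6 CPM. Their split is uncertain, as is that of Ndufb4 and Ndufb4c. In RefSeq, 10 members have named pseudogenes, 15 in all, that may exchange reads with them. The exons of 24 members overlap those of another gene, mostly on the opposite strand, and the sources used here do not say whether counting used strand. Among the genes named in results, this concerns Ndufa4l2 (32 bases shared with Shmt2), Cox5a, Cox6a2, Atp5a1, Atp5j, Ndufs1, Uqcrb, Ndufs6, Ndufaf3, Ndufab1 and Uqcrc2.

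The design compares the 4 sorted populations with one another. In a fit with group as the only term, none of the 91 tested members passed the test in any of the 6 comparisons of single groups. The test was edgeR's quasi-likelihood test on counts, in 1 fit of all 16 libraries, with Benjamini-Hochberg adjustment over 15963 genes and a threshold of 0.05. In mScarlet vs DN 0 of 91 members were called, where 1.18% of all tested genes were. In DP vs DN 0 were called, with 2.32% of all genes called. GFP vs mScarlet called 0 members, against 1.53% of all genes, and DP vs GFP called 0, against 0.564%. In GFP vs DN and in DP vs mScarlet 0 members and 0% of all genes were called. At an unadjusted p under 0.05 there were 3 members in mScarlet vs DN, 3 in DP vs DN, 2 in GFP vs DN, 11 in GFP vs mScarlet, 5 in DP vs GFP and 0 in DP vs mScarlet. DESeq2 called 1 member in mScarlet vs DN (Cox7a1, lower; 5.63% of all genes), 2 in DP vs DN (Atp5a1 and Cox7a1, lower; 7.29%), 2 in GFP vs mScarlet (Cox6b2 and Ndufa4l2, higher; 10.5%) and 1 in DP vs GFP (Ndufa4l2, lower; 6.81%). It called 0 in the remaining comparisons, and limma voom called 0 in each. With the library number as a block, 1 member was called in DP vs DN. It was Cox7a1 (adjusted p = 0.0231 with the block and 0.102 without it), against 6.37% of all genes with the block. The block also called 3 of 91 members in mScarlet vs DN, with 5.42% of all genes, and 5 of 91 in GFP vs mScarlet, with 7.45%. Without GFP libraries 1 and 4 the edgeR counts of members were 0 in all 6 comparisons.

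When the 8 mScarlet-positive libraries (DP and mScarlet) were set against the 8 mScarlet-negative ones (GFP and DN), 2 members fell and none rose in the fit without a block. The 2 were Ndufa4l2 and Cox7a1, the low-abundance partners of abundant complex IV genes, and both had means under 10 CPM. In this comparison 8.73% of all genes tested were called, and 5.21% were called lower. DESeq2 called 5 members there (15.7% of all genes), with Sdhd higher and Atp5a1, Atp5b, Cox7a1 and Ndufa4l2 lower. With the library number as a block, 11 members were called (14.4% of all genes), of which 9 were higher and 2 lower. The 9 were Atp5g1, Cox5a, Cox6c, Cox7b, Cox7c, Ndufa1, Ndufs4, Sdhd and Uqcrb. Cox7a1 was chosen for description after its values were seen.

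Ndufa4l2 (Entrez 407790, chromosome 10, 127509274 to 127517154; gene coordinates here are from RefSeq, GRCm38.p6) had 1.05, 1.15, 0.968 and 1.41 CPM in DP libraries 1 to 4. The mScarlet libraries had 0.56, 0.971, 1.11 and 1.27 CPM. The GFP libraries had 5.53, 1.35, 2.33 and 4.88 CPM, and the DN libraries 2.16, 1.42, 1.24 and 4.11 CPM. The highest values came from GFP libraries 1 and 4 and DN library 4. The groups overlapped slightly, since DP library 4 lay above GFP library 2 and DN library 3, and mScarlet library 4 above DN library 3. The log2 fold change of mScarlet-positive over mScarlet-negative was -1.41 (SE 0.39, 95% interval -2.24 to -0.57, edgeR adjusted p = 0.0361). Without GFP libraries 1 and 4 together it was -0.94 (adjusted p = 0.245), and over 24 alternatives the call was kept in 11, with adjusted p from 0.00091 to 0.245.

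Its partner Ndufa4 (Entrez 17992, chromosome 6, 11900372 to 11907450) had 187, 211, 191 and 253 CPM in DP and 171, 229, 277 and 322 CPM in mScarlet. In GFP it had 161, 198, 167 and 227 CPM, and in DN 190.3, 248, 203 and 289 CPM. All 4 groups overlapped, and the log2 fold change of mScarlet-positive over mScarlet-negative was 0.13 (SE 0.14, edgeR adjusted p = 0.607). The 95% interval ran from -0.16 to 0.42.

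Cox7a1 (Entrez 12865, chromosome 7, 30184171 to 30186030) had 1.09, 1.75, 0.52 and 2.1 CPM in DP and 1.52, 0.867, 0.831 and 2.99 CPM in mScarlet. It had 2.97, 1.88, 2.52 and 4.57 CPM in GFP and 6.24, 3.55, 2.56 and 8.12 CPM in DN. Every DP library lay below every DN library, while mScarlet library 4 lay above DN library 3 and 3 of the GFP libraries. The log2 fold change of mScarlet-positive over mScarlet-negative was -1.42 (SE 0.40, 95% interval -2.27 to -0.57, edgeR adjusted p = 0.0373). Without GFP libraries 1 and 4 together it was -1.21 (adjusted p = 0.138), and the call was kept in 12 of 24 alternatives, with adjusted p from 0.0021 to 0.138. Against DN alone the log2 fold change was -1.90 (SE 0.57, edgeR adjusted p = 0.102) in DP and -1.72 (SE 0.57, edgeR adjusted p = 0.168) in mScarlet. Both comparisons share the DN libraries.

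The partner Cox7a2 (Entrez 12866, chromosome 9, 79755241 to 79771422) averaged 152 ± 22.4 CPM in DP, 171 ± 26.5 in mScarlet, 155 ± 30.4 in GFP and 157 ± 36.1 in DN (SD, n = 4 each). Its log2 fold change of mScarlet-positive over mScarlet-negative was 0.05 (SE 0.13, edgeR adjusted p = 0.856).

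**Figure D2:**
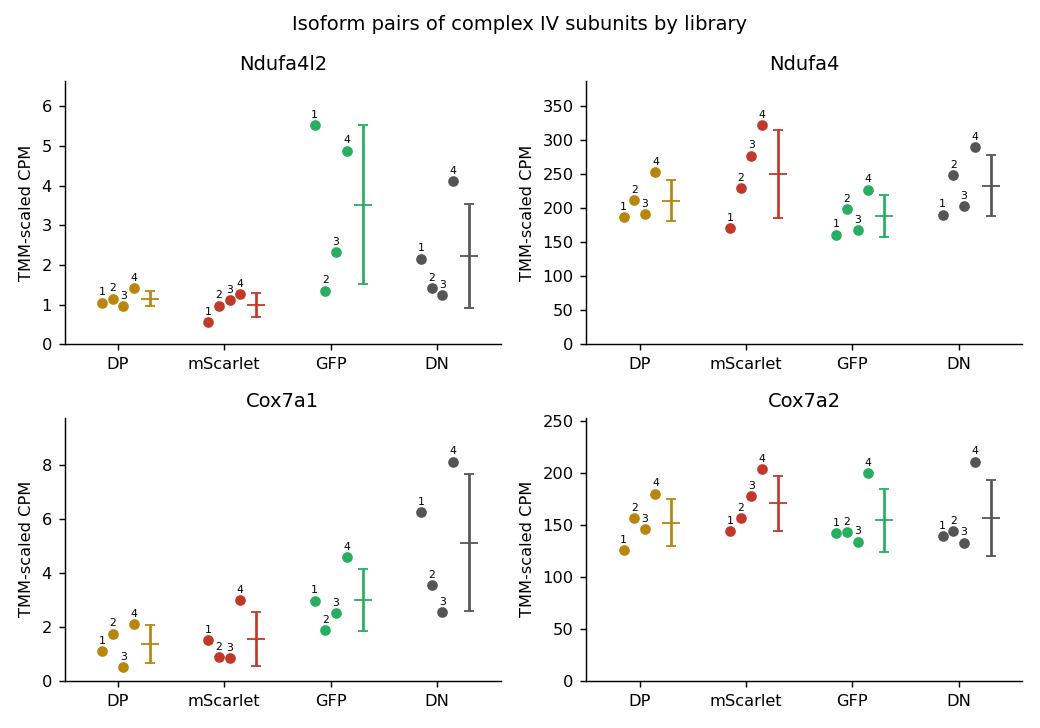
Level in TMM-scaled CPM of Ndufa4l2, Ndufa4, Cox7a1 and Cox7a2 in every library, numbered 1 to 4, with the mean and SD of each group beside the points. Ndufa4l2 reaches 5.53 in GFP library 1 and Cox7a1 reaches 8.12 in DN library 4, while their abundant partners overlap in all groups.

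Both calls were lost on leaving out any of several single libraries. For Ndufa4l2 the adjusted p was 0.0604 without DN library 1, 0.0884 without DN 4, 0.0769 without GFP 1 and 0.0638 without GFP 4. It was 0.0711, 0.064 and 0.0699 without DP 1, 2 and 3, and 0.0701, 0.0673 and 0.0569 without mScarlet 1, 2 and 3. For Cox7a1 it was 0.0749 without DN 1, 0.0855 without DN 4, 0.0525 without GFP 1 and 0.0654 without GFP 4. It was 0.0759, 0.0543 and 0.0654 without DP 1, 2 and 3, and 0.0665, 0.0757 and 0.0689 without mScarlet 1, 2 and 3. Markers of fibroblasts moved the same way as both genes. Of 10 fibroblast markers, 5 were called by edgeR lower in mScarlet-positive libraries and 0 had a positive fold change. Their summed level was 26.7 to 269 CPM in DP, 17.8 to 88.5 in mScarlet, 608 to 9111 in GFP and 135 to 1429 in DN, and none of them was at 0 in the sum of any group. The 10 acinar and the 10 macrophage markers also had negative fold changes throughout, with 0 called by edgeR and 10 and 2 of them at an unadjusted p under 0.05. Acinar markers summed to 44.8 to 172 CPM in DP, 63.9 to 1296 in mScarlet, 340.1 to 24481 in GFP and 82.3 to 837 in DN. Macrophage markers summed to 1014 to 5263 CPM in DP, 129 to 854 in mScarlet, 343 to 22233 in GFP and 136 to 2680.5 in DN. The 8 muscle markers summed to 6.76 to 14.5 CPM over all libraries, most of it Acta1. The part of other cells in the levels of Ndufa4l2 and Cox7a1 was not tested.

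Most abundant members had intervals within 1.5-fold between mScarlet-positive and mScarlet-negative libraries, though not all of these intervals held 0. These are 95% intervals of the log2 fold change from the fit without a block. They lay within 1.5-fold in either direction for 76 of 91 members (83.5%), against 28.9% of all tested genes. Among genes with a mean of at least 10 CPM they did so for 74 of 81 members (91.4%), against 53.8% of all. The intervals of members were also narrower there, with a median half-width of 0.251 against 0.337 for all genes. An unadjusted edgeR p under 0.05 was found for 8 of the 81 members, against 2453 of 8102 genes. The median log2 fold change of the members was 0.05, with 60 of 91 positive, against -0.02 for all genes. Under 3 scalings the number positive ran from 53 to 65, and without GFP libraries 1 and 4 it was 69, with a median of 0.11.

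By complex, the median log2 fold change of mScarlet-positive over mScarlet-negative was 0.07 in complex I (26 of 37 positive), 0.10 in complex II (2 of 4), 0.05 in complex III (5 of 8), 0.13 in complex IV (12 of 17) and 0.04 in complex V (11 of 17). The assembly factors had a median of 0.004, with 4 of 8 positive. All 17 members of complex V and all 4 of complex II had intervals within 1.5-fold, against 32 of 37 in complex I and 10 of 17 in complex IV.

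In complex I the core subunit Ndufs1 had a log2 fold change of 0.05 (SE 0.13, edgeR adjusted p = 0.875). In complex III the core protein Uqcrc1 had -0.11 (SE 0.13, edgeR adjusted p = 0.665). In complex V the alpha subunit Atp5a1 had -0.15 (SE 0.07, edgeR adjusted p = 0.239). The mean levels of Ndufs1 were 59.3 ± 9.71 CPM in DP, 53 ± 10.1 in mScarlet, 53.7 ± 10.8 in GFP and 55 ± 3.3 in DN (SD, n = 4 each). None of these differences passed the test, and the intervals allow at most 1.5-fold.

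Without a block, Sdhd of complex II came nearest to a call among abundant members. The complex did not move as a whole between mScarlet-positive and mScarlet-negative libraries. Sdhd and Sdha had positive log2 fold changes, and Sdhb and Sdhc negative ones, the lowest at -0.105. Sdhd, a membrane anchor of succinate dehydrogenase (Entrez 66925, chromosome 9, 50596340 to 50603849), was picked for description after its values were seen. It had 263, 269, 241 and 309 CPM in DP and 237, 284, 263 and 285 CPM in mScarlet. It had 235, 237, 211 and 186 CPM in GFP and 215, 235, 216 and 251 CPM in DN. The groups overlapped only through DN library 4, which lay above DP library 3 and mScarlet library 1, and through GFP library 2 at the level of mScarlet library 1. The log2 fold change was 0.27 (SE 0.08, 95% interval 0.09 to 0.45, edgeR adjusted p = 0.0565). It was called with the block (adjusted p = 0.0326) and by DESeq2 (adjusted p = 0.0174). Sdha, the catalytic flavoprotein of the same complex, had 318, 236, 277 and 318 CPM in DP and 241, 191, 222 and 290.2 CPM in mScarlet. It had 262, 195, 238 and 163 CPM in GFP and 223, 240.5, 257 and 176 CPM in DN. These ranges overlapped, with a log2 fold change of 0.25 (SE 0.12, edgeR adjusted p = 0.236).

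In complex IV, Cox5a (Entrez 12858, chromosome 9, 57517328 to 57532427), a structural subunit, had 256, 211, 159.9 and 308 CPM in DP and 241, 174, 191 and 302 CPM in mScarlet. It had 188, 146, 150.2 and 227 CPM in GFP and 169, 177, 156 and 199.6 CPM in DN. The highest library of every group was number 4. The log2 fold change was 0.38 (SE 0.15, 95% interval 0.07 to 0.70, edgeR adjusted p = 0.126), and the block called it higher. Cox4i1 had a log2 fold change of 0.03 (SE 0.10, edgeR adjusted p = 0.917), which turned to -0.002 with RLE scaling. Its rare partner Cox4i2, with 127 counts in DP, 43 in mScarlet, 166 in GFP and 11 in DN, had 0.85 (SE 1.08, edgeR adjusted p = 0.692).

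**Figure D3:**
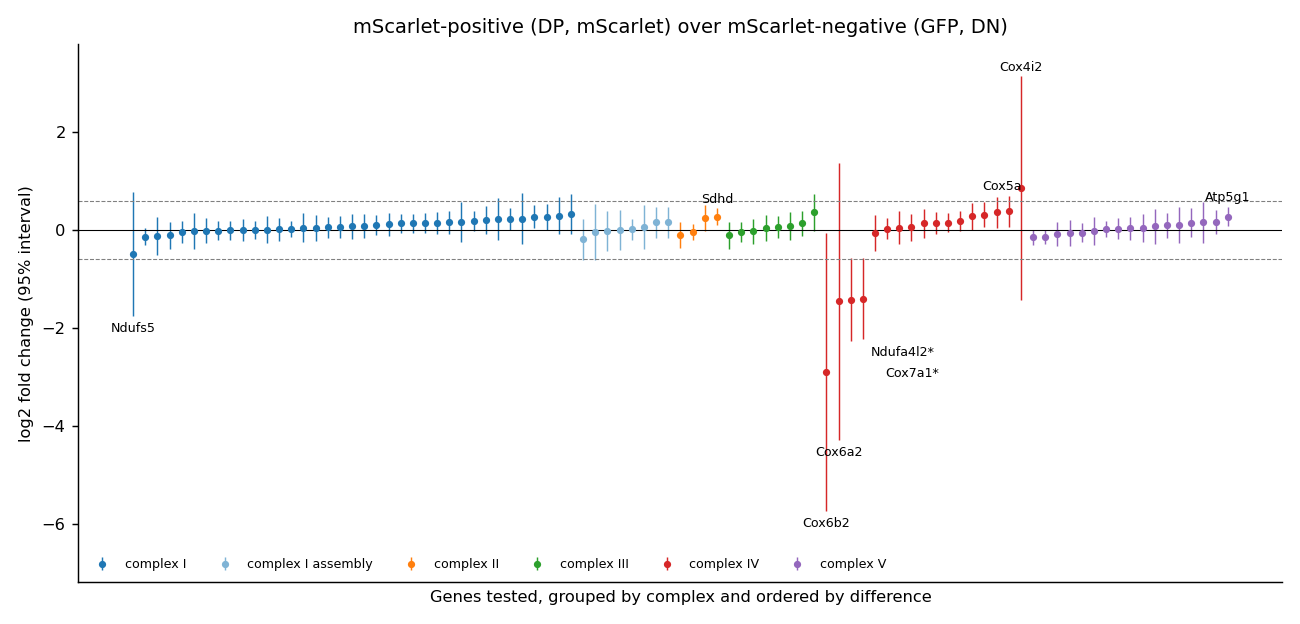
log2 fold change of mScarlet-positive over mScarlet-negative libraries with its 95% interval for the 91 members tested, grouped by complex. Dashed lines mark 1.5-fold and asterisks the 2 called genes. The first 4 bars of complex IV, left to right, are Cox6b2, Cox6a2, Cox7a1 and Ndufa4l2. Most intervals lie between the dashed lines, and the widest belong to low-abundance isoforms and Ndufs5.

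GFP vs mScarlet compared cells positive for 1 reporter each. The members leaned lower in GFP, with 72 of 91 negative and a median log2 fold change of -0.15, against 0.02 for all genes, and none was called. The members ranked by size in this and the following comparisons are those with a mean of at least 10 CPM, and several rarer ones had larger values. Among genes of at least 10 CPM, the medians were -0.17 for members and -0.06 for all. The 3 lowest members were Cox7c, Cox7b and Atp5g1, all called lower with the block. Cox7c, a small complex IV subunit, had 34.3, 42.7, 36.4 and 40.4 CPM in GFP and 41.7, 53, 55.9 and 64 CPM in mScarlet. Only GFP library 2 overlapped the mScarlet range, and the log2 fold change was -0.48 (SE 0.17, edgeR adjusted p = 0.136). Atp5g1, one of the genes for subunit c of the ATP synthase rotor, had 122, 131, 133 and 153 CPM in GFP and 165, 153, 195 and 207 CPM in mScarlet and met only at 153 CPM. Its log2 fold change was -0.42 (SE 0.13, edgeR adjusted p = 0.101). Cox7b, another small complex IV subunit, had a log2 fold change of -0.44 (SE 0.22, edgeR adjusted p = 0.282). Cox5b at 0.10 and Atp5b at 0.09 were among the largest positive values of members at 10 CPM or more. Without GFP libraries 1 and 4, the members' median was -0.25, with 75 of 91 negative, and Cox5b turned to -0.28.

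In mScarlet vs DN, 57 of 91 members had a positive log2 fold change, with a median of 0.07, against -0.003 for all genes. Uqcrb, a small subunit of complex III, had the largest value of the abundant members at 0.46 (SE 0.26, edgeR adjusted p = 0.451). Cox7b at 0.38 and Cox6c at 0.38, both of complex IV, came next. The lowest abundant members were Ndufs6, a complex I subunit, at -0.20, and Atp5a1 and Atp5b, which encode subunits of the F1 head, at -0.18 each. None of these passed the test without the block, and Cox7b and Cox6c were called higher with it.

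In DP vs DN the median of the members was -0.02, with 40 of 91 positive, against 0.02 for all genes. Atp5a1 (Entrez 11946) had 1142, 1221, 1126 and 1372 CPM in DP and 1513, 1422, 1415 and 1438 CPM in DN. Every DP library lay below every DN library. The log2 fold change was -0.25 (SE 0.11, 95% interval -0.47 to -0.03, edgeR adjusted p = 0.246). Uqcrb at 0.43, Cox5a at 0.41 and Ndufa1 at 0.36 had the largest positive values at 10 CPM or more, and Ndufab1 at -0.26 and Sdhb at -0.26 were, with Atp5a1, the lowest. DP vs mScarlet had a member median of -0.09, with 21 of 91 positive, against -0.007 for all genes. At 10 CPM or more, the highest and lowest were Sdha at 0.28, Uqcrc2 at 0.27 and Ndufaf3 at 0.16, against Atp5g2 at -0.29, Atp5md at -0.27 and Ndufa4 at -0.25. In DP vs GFP, 60 of 91 were positive with a median of 0.07, against -0.04 for all genes, and Sdha had the largest value at 10 CPM or more, 0.42 (SE 0.17, edgeR adjusted p = 0.252). Cox5a at 0.39 and Ndufs4 at 0.37 followed, and Uqcrc1 at -0.25, Atp5d at -0.19 and Sdhb at -0.18 were the lowest at that level. In GFP vs DN, 20 of 91 were positive with a median of -0.09, against 0.02 for all genes. Uqcrb at 0.17, Ndufb3 at 0.13 and Ndufaf3 at 0.12 were the highest at 10 CPM or more, and all 3 turned negative without GFP libraries 1 and 4. Ndufaf1, an assembly factor, at -0.43, Ndufa4 at -0.31 and Ndufa10 at -0.30 were the lowest at that level. Comparisons that name a group in common share its libraries.

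The 8 GFP-positive libraries (GFP and DP) against the 8 GFP-negative ones (mScarlet and DN) called 0 of 91 members and 0% of all genes. There were 2 members at an unadjusted p under 0.05, and DESeq2 and limma voom also called 0. In this comparison 16 of 91 members were positive, with a median of -0.10, against 0.006 for all genes. Under 3 scalings the number positive ran from 12 to 17. The interval lay within 1.5-fold for 81 of 91 members (89%), and for 79 of 81 with at least 10 CPM (97.5%), against 70.2% of all genes at that level. Ndufaf3 at 0.14, Sdha at 0.11 and Ndufb3 at 0.07 had the largest positive values at 10 CPM or more, and Ndufa4 at -0.28, Ndufab1 at -0.22 and Atp5md at -0.22 the lowest.

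The interaction tested whether the difference by GFP depended on the mScarlet gate. It called 0 members and 0% of all genes, with 1 member, Uqcrc2, at an unadjusted p under 0.05 and 0 by DESeq2 or limma voom. Uqcrc2 had a log2 value of 0.46 (SE 0.21, edgeR adjusted p = 1). The other extremes at 10 CPM or more were Ndufaf1 at 0.46 and Sdha at 0.35, and Ndufaf8 at -0.30, Uqcrc1 at -0.28 and Atp5d at -0.26. The members' median of 0.02 was -0.01 with RLE scaling and 0.12 with total counts alone, where the median of all genes was 0.07, against -0.04 with TMM.

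Differences between libraries of a group were as large as those between groups for the summed levels. All 94 genes together summed to 16116 ± 1593 CPM in DP, 17114 ± 1681 in mScarlet, 15825 ± 1042 in GFP and 16783 ± 1377 in DN (SD, n = 4 each). Complex I summed to 4488, 5682, 5138 and 5682 CPM in DP and 5132, 5207, 5899 and 6297 CPM in mScarlet. It summed to 4517, 4888, 4975 and 5713 CPM in GFP and 5121, 5130.3, 5151 and 6249 CPM in DN. The groups overlapped, and number 4 was the highest or tied for the highest in each. Complex II differed from this in GFP, where library 4 was the lowest at 743 CPM and the others had 877 to 1033 CPM.

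Library number 4 held the highest value of most abundant members. Of 81 members with at least 10 CPM, it was the highest of its group for 53 in DP, 67 in mScarlet, 57 in GFP and 73 in DN. Of all genes at that level, library 4 was the highest for 30.6% in DP, 33.7% in mScarlet, 27% in GFP and 28.1% in DN. In all 4 groups at once this held for 37 of 81 members (45.7%), against 627 of 8103 genes (7.74%). The 37 included small subunits of complex IV (Cox5b, Cox6c, Cox7a2, Cox7b), of complex I (Ndufa1, Ndufs6) and of complex V (Atp5j, Atp5k). What the number marks is not given, and these shares are a description. Library 4 also had the fewest genes with a count in DP (15744), mScarlet (15476) and GFP (16039). In DN it had 16550, above DN library 1 with 16219. The part of this in the member levels was not tested. Across the 16 libraries, the SD of log2 level had a median of 0.22 over the 81 members and of 0.33 over all genes at that level. It was lowest for Sdhc at 0.11 and highest for Ndufa5 at 0.47.

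**Figure D4:**
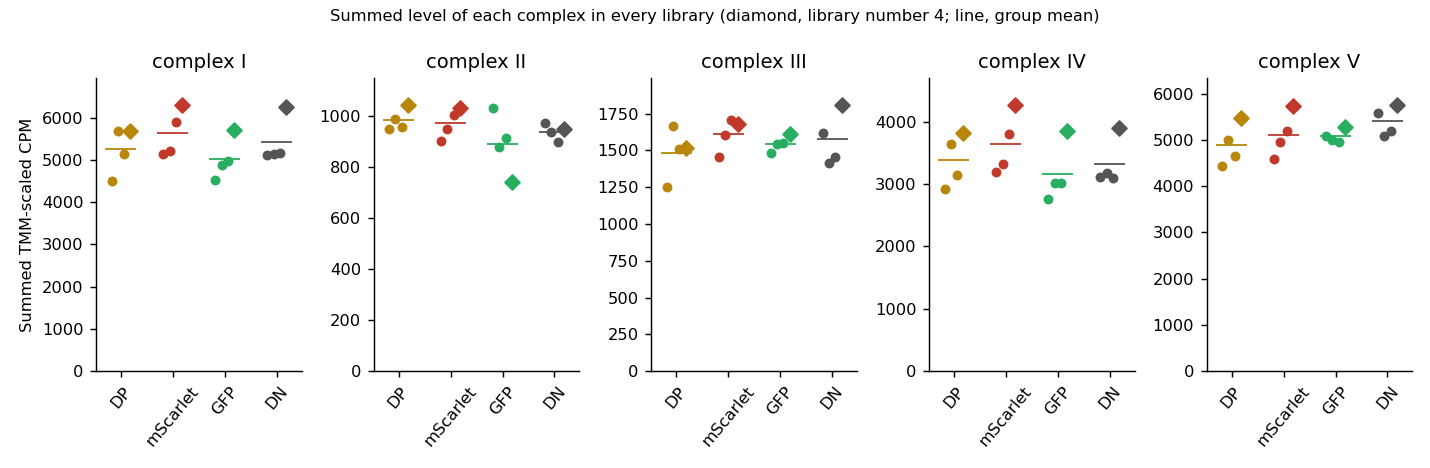
Summed level of each complex in TMM-scaled CPM in every library, with diamonds for library number 4 and lines for group means. Groups overlap in every complex, and number 4 lies at or near the top except in complex II, where it is lowest in GFP at 743 CPM.

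Genes that feed the chain were set beside it, from lists drawn up by function. The lists were chosen with earlier results of these data known, so their contrast with the chain is a description only. Of all 15963 genes tested in mScarlet-positive vs mScarlet-negative, edgeR called 562 higher and 831 lower, 8.73% in all. Of 9 carriers and entry points to coenzyme Q and cytochrome c, 2 rose in mScarlet-positive libraries. The 9 include Cyc1, which encodes cytochrome c1 of complex III and falls outside the symbol rule. Its group means ran from 325 to 388 CPM, and the complex III values above leave it out. Sqor, which oxidises sulfide and reduces coenzyme Q, averaged 155 ± 7.66 CPM in DP, 162 ± 4.46 in mScarlet, 105 ± 19.1 in GFP and 93.6 ± 16.4 in DN (SD, n = 4 each). Its log2 fold change was 0.68 (SE 0.10, edgeR adjusted p = 0.0012). Gpd2, the mitochondrial glycerol-3-phosphate dehydrogenase, had 0.75 (SE 0.17, edgeR adjusted p = 0.0131). Of 18 genes of the TCA cycle 1 rose, Suclg2, a subunit of succinyl-CoA ligase, at 0.58 (SE 0.15, edgeR adjusted p = 0.0263). Of 38 assembly factors outside the rule and 13 genes of coenzyme Q synthesis, edgeR called 0, with 3 and 0 of them at an unadjusted p under 0.05. Of 15 tested regulators of mitochondrial gene expression 1 rose, Epas1, which encodes HIF-2 alpha, at 0.62 (SE 0.18, edgeR adjusted p = 0.0466). Of 20 glycolysis genes 14 fell and 0 rose, with a median log2 fold change of -0.84. Among the 14 were Eno3, an enolase, at -2.72 (SE 0.21, edgeR adjusted p = 8.16e-06), Pfkp, a phosphofructokinase, at -1.24 (SE 0.23), and Pdk1, an inhibitor of pyruvate dehydrogenase, at -1.01 (SE 0.16). The difference between the lists was not tested.

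**Figure D5:**
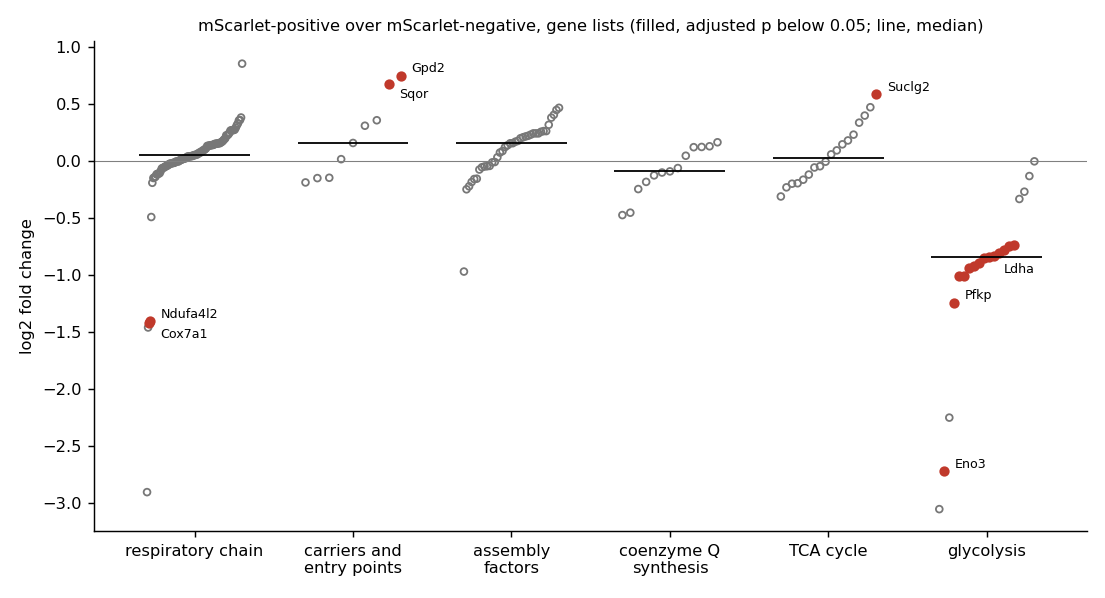
log2 fold change of mScarlet-positive over mScarlet-negative libraries for the 91 respiratory chain members and for 5 lists of related genes, one point per gene, with the median as a line. Filled points have an edgeR adjusted p below 0.05. The members centre on 0.05 and glycolysis on -0.84. The lists were chosen with earlier results of these data known.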

How the data were processed

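Cells were sorted into RNA lysis buffer, and low-input cDNA of full length was PCR-amplified, per the labels' protocols. The deposited values are raw read counts per gene, in whole numbers, from the authors. GRCm38 (mm10), STAR and DESeq2 1.24.0 are named, per the submitters' processing notes, with no role for each. The sources used here give no counter, annotation or strand setting. Of 24467 Entrez identifiers, 24437 matched a RefSeq symbol, and the other 30 (0.723% to 1.931% of counts) stayed in the library totals. No 2 replicates agreed within sampling noise (lowest chi-square per degree of freedom 97.96).

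The members and lists were chosen with earlier results of these data known. Counts were filtered by group, TMM-scaled and fitted with edgeR 4.0.16 (robust quasi-likelihood, R 4.3.3) to 16 libraries with group as the only term, giving 9 contrasts over 15963 genes. Calls had a Benjamini-Hochberg adjusted p under 0.05. The fit was also run on simulated counts with known differences, and the outcome of that run is not given here. Alternatives were a block for library number, fits of 2 groups alone, RLE or total-count scaling, DESeq2 1.42.0, limma 3.58.1 voom, other filters, left-out libraries and a fit that was not robust. The robust option was not part of the planned design: it was settled, and the other fit added as an alternative, after seeing the data under both, and both called the same number of members in every comparison. Same-numbered libraries deviated together (r over 0.1) in 20 of 24 pairs, among them all 4 pairs in DP vs DN, GFP vs DN and DP vs mScarlet. The r of same-numbered libraries ran from 0.0581 to 0.416, and that of differently numbered libraries of different groups from -0.26 to 0.172. The limit of 0.1 therefore does not separate the 2 kinds of pair, though 10 of 16 libraries correlated best with their own number in every group. The comparisons named link all 4 groups, so pairing cannot be read for some groups alone. No label says what the numbers mark, and counts with the block are given beside those without it. Intervals and SEs come from the fit without the block.

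Exon lengths came from GENCODE vM21 and promoters from RefSeq GRCm38.p6. Named members were, per comparison with calls, up to 6 called per direction with at least 10 CPM, and otherwise the 3 largest per direction; Ndufa4l2, Ndufa4, Cox4i1, Cox4i2, Ndufs1, Sdha, Uqcrc1, Cox5a and Atp5a1 were always described, with the isoform pairs and up to 3 called genes per related list. One result that this rule names is not reported here. P-values measure the spread among these libraries. Reads carry no molecular identifiers, so floors cover counting error only.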

Additional observations from a re-analysis of the deposited data

Results flagged for a closer look

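A value was set apart where the gap between the highest or lowest library of a group and its nearest neighbour exceeded the share of the group's range that Dixon's 95% value for 4 libraries sets. This held in 10 of 156 groups examined, where chance gives about 1 in 20, and in each of the 10 the library was the highest of its group and carried number 4. Ndufs6, a complex I subunit, was set apart in 3 groups. It was at 91.9 CPM in mScarlet library 4 (others 45.1 to 50.7), at 89.8 CPM in GFP library 4 (others 44.3 to 50.7) and at 79.3 CPM in DN library 4 (others 62.8 to 65.5). Ndufa1, also of complex I, was at 56.2 CPM in DN library 4 (others 39.5 to 41), and the assembly factor Ndufaf1 at 16.3 CPM in mScarlet library 4 (others 10.1 to 10.7). Uqcrb of complex III was at 72.5 CPM in DP library 4 (others 38 to 40.6). In complex IV, Cox7b was at 108 CPM in DP library 4 (others 63.7 to 67.3) and Cox5b at 124 CPM in DN library 4 (others 90.2 to 93.1). The summed level of complex I was 6249 CPM in DN library 4 (others 5121 to 5151), and that of complex IV was 3889.9 CPM (others 3103 to 3169). Fibroblast markers summed to 269 CPM in DP library 4, 58.4 in mScarlet library 4, 9111 in GFP library 4 and 1429 in DN library 4, the highest of the group in DP, GFP and DN and not in mScarlet. Their part in these values was not tested.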

How the results depend on the processing

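With the library number as a block, the numbers of members called were 3 in mScarlet vs DN (Cox6c and Cox7b higher, Cox7a1 lower), 1 in DP vs DN, 5 in GFP vs mScarlet (Atp5g1, Atp5g2, Cox6c, Cox7b and Cox7c, all lower in GFP) and 11 in mScarlet-positive vs mScarlet-negative (9 higher, 2 lower), and the block changed no other count. Same-numbered libraries had r from 0.0581 to 0.416, and 10 of 16 libraries correlated best with their own number in every group, a hint from the data and not the design. DESeq2 called 1 in mScarlet vs DN, 2 in DP vs DN, 2 in GFP vs mScarlet, 1 in DP vs GFP and 5 in mScarlet-positive vs mScarlet-negative. In the last comparison limma voom called 1, and 0 were called with no filter and without GFP libraries 1 and 4. A filter of at least 10 CPM in 4 libraries also gave 0, but it removes Ndufa4l2 and Cox7a1, so it could not call them. Leaving out single libraries gave 0 to 2 in mScarlet-positive vs mScarlet-negative and 0 elsewhere. Over alternatives and named members, 28 log2 values changed sign, none of them called. Without GFP libraries 1 and 4, Uqcrb (-0.13), Ndufb3 (-0.15) and Ndufaf3 (-0.12) reversed in GFP vs DN, Cox5b (-0.28) in GFP vs mScarlet, Ndufb3 (-0.065) in GFP-positive vs GFP-negative, Ndufaf8 (0.05) in the interaction, and Cox4i1 (-0.004) and Ndufs1 (-0.003) in mScarlet-positive vs mScarlet-negative; Cox4i1 was at -0.002 with RLE scaling and DESeq2. With single libraries left out the ranges were -0.048 to 0.33 for Uqcrb, -0.11 to 0.23 for Ndufb3 and -0.19 to 0.24 for Ndufaf3 in GFP vs DN, -0.19 to 0.37 for Cox5b in GFP vs mScarlet, -0.008 to 0.21 for Ndufaf3 and -0.048 to 0.23 for Ndufb3 in GFP-positive vs GFP-negative, -0.42 to 0.032 for Ndufaf8 in the interaction, and -0.045 to 0.075 for Cox4i1 and -0.027 to 0.099 for Ndufs1 in mScarlet-positive vs mScarlet-negative. The causes were not tested. The low counts of the rare isoforms limit what can be shown for them.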
